A study of Mus musculus with 2 samples.

Results

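The 10 genes described here encode Krüppel-like factors (KLFs): *Klf2*, *Klf3*, *Klf4*, *Klf5*, *Klf6*, *Klf7*, *Klf9*, *Klf10*, *Klf11* and *Klf13*. They were chosen by gene symbol as the expressed range of the KLF family, and all 10 were found among the 23183 genes of the deposited tables. *Klf16*, which is also expressed, is not among them and is described further below. The tables come from 2 libraries of mouse lung cancer cells, 1 of KPR- cells and 1 of KPR_restored cells, so no difference below was set against the variation between cultures. Both are immortalized cells from lung cancers of KPR L/F mice not given tamoxifen, which carry a *K-Ras* LSL-G12D/+ allele that Cre can switch on. The same mice are *p53* flox/flox and *Runx3* flox/FSF, and they also carry the Tomato* reporter and the FlpERT2 recombinase. In these mice, Cre from an inhaled adenovirus switched on oncogenic *K-Ras* and removed *p53* and the floxed *Runx3* allele, so by genotype both libraries share an active *K-Ras* and deleted *p53*. In KPR- cells (genotype RUNX3 -/- in the records) a *Frt-Stop-Frt* cassette keeps the other *Runx3* allele off. In KPR_restored cells (genotype RUNX3 -/+) the drug 4-hydroxytamoxifen (4-OHT) switches on Flp recombinase, which removes the cassette. The records give 0 h for the KPR- library and 16 h for the KPR_restored library and list 1 μM 4-OHT for both. The restoration of *Runx3*, the drug and the hours in culture cannot be told apart in these 2 libraries.

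KLFs are transcription factors that bind GC-rich and CACCC-type DNA through zinc fingers at the carboxyl end of the protein. Outside the fingers they diverge, and the family is divided by what the rest of the protein recruits: *Klf3* and its relatives bind the corepressor CtBP, *Klf9*, *Klf10*, *Klf11* and *Klf13* bind the corepressor Sin3, and *Klf2*, *Klf4*, *Klf5*, *Klf6* and *Klf7* form a group that mostly activates. In epithelia they are known for setting the balance of growth and differentiation. Several of them are also known as genes that respond within hours to serum, stress or growth factors.

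The zinc finger stretch is what makes these 10 genes a family, so its coding sequence is shown for 4 members with contrasting values. The longest transcript of each of the 10 genes (GENCODE M21, GRCm38) encodes 3 fingers of the C2H2 type in a row, over 243 coding bases. The lines below run 5′ to 3′ from the first zinc-binding codon to the last, and capitals mark the cysteine and histidine codons that hold zinc. *Klf4* is shown at chr4:55528131-55529790 (minus strand), *Klf6* at chr13:5865272-5867277 (plus strand), *Klf7* at chr1:64035719-64078779 (minus strand) and *Klf11* at chr12:24655704-24660352 (plus strand). These spans include introns that the sequences leave out.
Klf4: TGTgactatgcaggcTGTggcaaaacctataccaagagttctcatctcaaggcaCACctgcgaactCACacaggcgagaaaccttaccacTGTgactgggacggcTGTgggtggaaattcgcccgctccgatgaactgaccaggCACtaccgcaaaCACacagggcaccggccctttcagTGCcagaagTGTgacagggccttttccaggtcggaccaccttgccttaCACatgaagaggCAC
Klf6: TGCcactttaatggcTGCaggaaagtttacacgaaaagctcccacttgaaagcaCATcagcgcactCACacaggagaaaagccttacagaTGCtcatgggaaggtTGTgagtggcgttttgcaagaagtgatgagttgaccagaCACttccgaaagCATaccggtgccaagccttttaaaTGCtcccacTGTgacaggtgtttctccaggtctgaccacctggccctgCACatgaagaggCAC
Klf7: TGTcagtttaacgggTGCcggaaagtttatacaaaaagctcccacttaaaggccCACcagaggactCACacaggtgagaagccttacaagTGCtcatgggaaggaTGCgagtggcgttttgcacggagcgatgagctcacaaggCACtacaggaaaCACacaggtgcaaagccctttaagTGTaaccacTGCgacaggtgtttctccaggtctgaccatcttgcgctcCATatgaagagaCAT
Klf11: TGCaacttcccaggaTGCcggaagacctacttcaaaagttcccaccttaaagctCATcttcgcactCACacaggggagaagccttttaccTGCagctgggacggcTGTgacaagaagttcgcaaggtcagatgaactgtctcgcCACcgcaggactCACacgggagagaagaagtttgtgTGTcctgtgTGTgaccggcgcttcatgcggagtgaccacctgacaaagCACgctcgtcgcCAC

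Over the 45 pairs of members, 57.2% to 81.1% of the 243 bases were identical, with a median of 64.6%. The closest pair was *Klf6* and *Klf7* at 81.1%, followed by *Klf2* and *Klf4* at 78.2% and *Klf10* and *Klf11* at 76.1%. Within the Sin3-binding members the identity was 64.6% to 76.1% (6 pairs), and between them and the activator group it was 57.2% to 65.8% (20 pairs). *Klf3* stood at 67.9% to 73.7% to the activator group and at 58.8% to 62.1% to the Sin3-binding members. The subgroups also differed in what follows the fingers: 3 to 6 coding bases remained after the last finger in the activator group and 9 in *Klf3*, against 57 to 117 in the Sin3-binding members. In spite of this likeness, no stretch of 50 bases was shared between the transcripts of any members, and the longest identical run between any of them was 26 bases (*Klf6* and *Klf7*). With all annotated transcripts of other genes, at most 0.268% of a member's 50-base stretches were shared (*Klf4*).

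**Figure D1:**
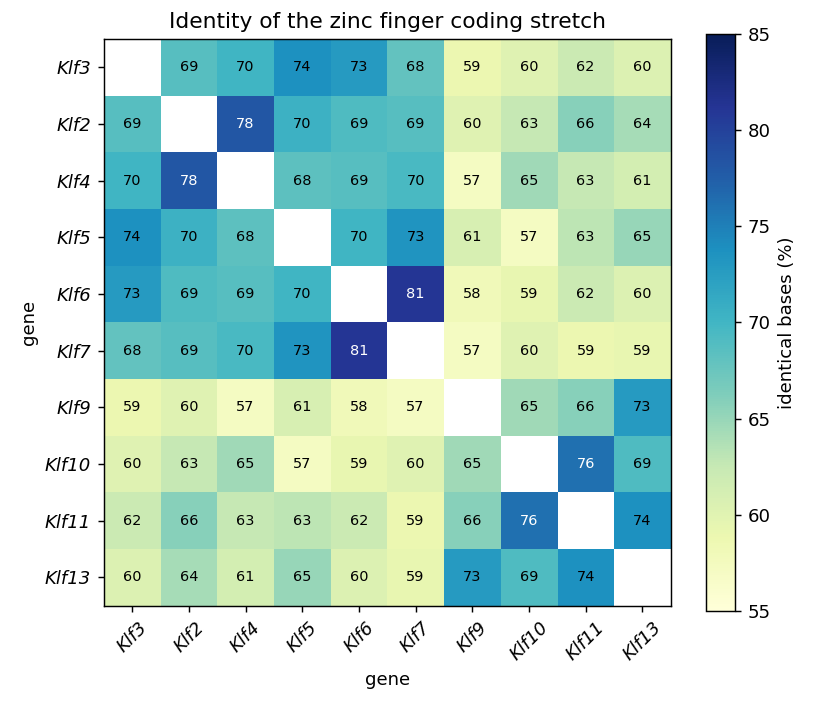
Share of identical bases (%, colour and printed number) between the zinc finger coding stretches of the 10 members, 243 bases each, without gaps. Genes on both axes are ordered by subgroup. The *Klf6* and *Klf7* pair is highest at 81.1%. The 4 Sin3-binding genes at the lower right share 64.6% to 76.1% with each other, which overlaps their 57.2% to 65.8% with the activator group.

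Values below are FPKM, fragments per kilobase of transcript scaled to the depth of the library, which may be compared between genes. Differences are log2(FPKM + 0.005) of the KPR_restored library minus that of the KPR- library, and a difference counts as higher or lower from 0.5 on either side. How many fragments stand behind a value was worked out with the longest transcript and depths of about 21900000 and 22500000 fragments, which the spacing of low FPKM values gives. The 95% counting limits (Clopper-Pearson) computed from it cover counting error between these 2 libraries only. *Runx3* itself had 0.348 FPKM in KPR- and 0.349 FPKM in KPR_restored (about 28 and 29 fragments), so its level does not check the labels. *Trp53*, the *p53* gene, had 2.12 and 2.17 FPKM (about 77 and 81 fragments), and these values for the whole gene do not show whether the floxed part was removed. Directions are therefore those of the library labelled KPR_restored. Of the 9 lung epithelial markers, *Krt8*, *Krt18*, *Krt19*, *Cdh1* and *Epcam* had 91.6 FPKM or more in both libraries, whereas *Sftpc*, *Sftpb* and *Scgb1a1* were listed at 0 in both and *Nkx2-1* rested on about 3 and 1 fragments. The cells thus carried general epithelial markers, and the markers of alveolar and club cells were at or near 0.

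Of the 10 members, 6 were higher in the library labelled KPR_restored (*Klf2*, *Klf4*, *Klf5*, *Klf6*, *Klf9* and *Klf11*) and 0 were lower, where 13.8% of all 23183 genes were higher and 12.9% were lower. *Klf3*, *Klf10* and *Klf13* had smaller positive differences, and *Klf7* alone had a negative one. The median difference of the members was 0.64, against 0 over all genes. Leaving out *Klf2*, which has a mean FPKM under 1, 5 of 9 members were higher, with a median of 0.54, against 12.1% higher and 9.29% lower among the 11231 expressed genes (mean FPKM of 1 or more) and a median of 0.0086. For 4 members (*Klf4*, *Klf6*, *Klf9* and *Klf11*) the lower counting limit itself was above 0.5. In all 10 members the limits excluded a difference of 0 when fragments were computed with the longest transcript. With the shortest coding transcript this held for 6, since the limits of *Klf7*, *Klf10*, *Klf11* and *Klf13* then included 0, and *Klf11* no longer had a lower limit above 0.5 (-0.11). At a threshold of 1, 2 members were higher (*Klf4* and *Klf11*) and 0 were lower, where 2.89% of the expressed genes were higher and 1.38% were lower.

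**Figure D2:**
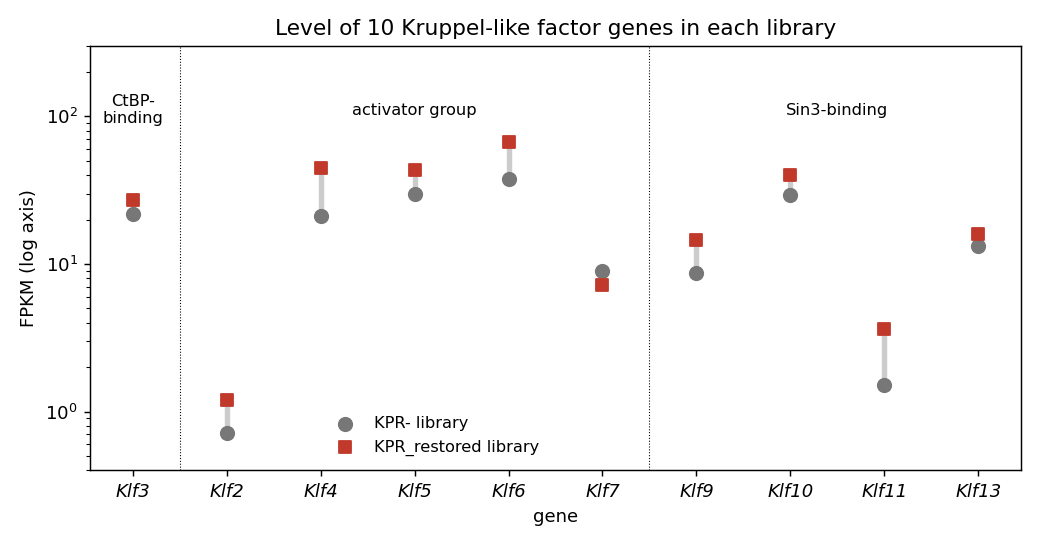
FPKM (log axis) of the 10 members in the KPR- library (circles) and the KPR_restored library (squares), 1 library each, ordered by subgroup. The squares stand above the circles for 9 genes, from 1.19 FPKM for *Klf2* to 66.7 FPKM for *Klf6*, and below for *Klf7*.

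In the activator group, *Klf6* was the most abundant member in both libraries. *Klf6*, a ubiquitous factor described as a tumor suppressor, spans bases 5861482 to 5870394 of chromosome 13 (GRCm38, plus strand). It had 37.9 FPKM in KPR- and 66.7 FPKM in KPR_restored. This is a 1.76-fold higher level, a difference of 0.82 with counting limits of 0.76 to 0.88, from about 3327 and 6021 fragments. It exceeded the difference of 95.3% of the expressed genes.

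*Klf4*, a regulator of epithelial differentiation and one of the factors used to reprogram cells to pluripotency, lies on chromosome 4 from 55527143 to 55532466 (minus strand). It had 21.1 FPKM in KPR- and 44.7 FPKM in KPR_restored. The level was 2.12-fold higher, a difference of 1.08 with limits of 0.99 to 1.18, from about 1301 and 2830 fragments. *Klf4* moved from the fifth to the second place among the members. *Klf6* and *Klf4* together made up 57.1% of the increase in the summed FPKM of the members.

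*Klf5*, a factor of proliferating epithelial cells, lies on chromosome 14 from 99298691 to 99315036 (plus strand). It had 29.7 FPKM in KPR- and 43.1 FPKM in KPR_restored. The difference of 0.54 lay close to the threshold, and its limits of 0.45 to 0.62 include 0.5. *Klf4* and *Klf5*, which often act on the same genes with opposite effects on growth, were thus both above their KPR- level, with *Klf4* by more. In KPR- cells *Klf5* was more abundant than *Klf4*, and in KPR_restored cells their levels were within counting error of each other, with a ratio of *Klf4* to *Klf5* of 1.04 and limits of 0.986 to 1.09.

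*Klf2*, a factor of quiescent endothelium and lymphocytes that is essential for lung maturation, lies on chromosome 8 from 72319033 to 72321656 (plus strand). It was the least abundant member in both libraries, at 0.711 FPKM in KPR- and 1.19 FPKM in KPR_restored. Only about 25 and 44 fragments stand behind these values, and the difference of 0.74 had limits of 0.04 to 1.55. *Klf2* thus cannot be placed above or below the threshold at this depth.

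*Klf7*, a factor known from neurons and fat tissue, lies on chromosome 1 from 64029447 to 64122282 (minus strand). It had 8.99 FPKM in KPR- and 7.23 FPKM in KPR_restored, the only member with a lower level there. The difference of -0.31 had limits of -0.42 to -0.20, short of the threshold. *Klf7* is the member closest to *Klf6* in finger sequence, and the pair differed in opposite directions. On the longest *Klf7* transcript, 7662 bases, the median difference of genes of similar length was -0.16, so the value of *Klf7* relative to those genes was -0.15. In the annotation, 3196 of the 8131 exon bases of *Klf7* also lie in exons of the noncoding RNA *Gm26649* on the opposite strand. The libraries keep strand, and whether the counting used it is not given in the sources used here.

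Among the Sin3-binding members, *Klf11* and *Klf9* were higher. *Klf11*, a TGF-β-inducible early gene, lies on chromosome 12 from 24651274 to 24662789 (plus strand). It had 1.503 FPKM in KPR- and 3.65 FPKM in KPR_restored, from about 127 and 318 fragments. The level was 2.43-fold higher, which is a difference of 1.28 with limits of 0.98 to 1.59 and the largest of the 10 members, although *Klf11* stayed the second lowest in level. Its limits overlap those of *Klf4*, so the order of these 2 differences is not resolved.

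*Klf9*, known as a gene induced by glucocorticoid and thyroid hormones, lies on chromosome 19 from 23141226 to 23168134 (plus strand). It had 8.73 FPKM in KPR- and 14.6 FPKM in KPR_restored. The level was 1.67-fold higher, with a difference of 0.74 and limits of 0.62 to 0.87, and it passed that of *Klf7*, from which it was not resolved in the KPR- library.

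*Klf10*, the other TGF-β-inducible early gene, lies on chromosome 15 from 38291463 to 38300706 (minus strand). It was far more abundant than *Klf11*, with 29.2 FPKM in KPR- and 40.2 FPKM in KPR_restored. The difference of 0.46 was just under the threshold, with limits of 0.37 to 0.55. The members nearest to the threshold were thus *Klf5* inside at 0.54 and *Klf10* outside at 0.46.

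*Klf13*, a factor known from T lymphocytes and heart, lies on chromosome 7 from 63886351 to 63938915 (minus strand). It had 13.2 FPKM in KPR- and 15.9 FPKM in KPR_restored, a difference of 0.27 with limits of 0.18 to 0.36. *Klf3*, the CtBP-binding member and a repressor in red cell and fat tissue, lies on chromosome 5 from 64803388 to 64832901 (plus strand). It had 21.6 FPKM in KPR- and 27.2 FPKM in KPR_restored, a difference of 0.33 with limits of 0.25 to 0.41. Both were above their KPR- level by less than the threshold. Genes of the length of their longest transcripts (6396 and 5221 bases) had median differences of -0.11 and -0.09. For *Klf3*, 404 of 11243 exon bases also lie in exons of *Gm20033* on the opposite strand.

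**Figure D3:**
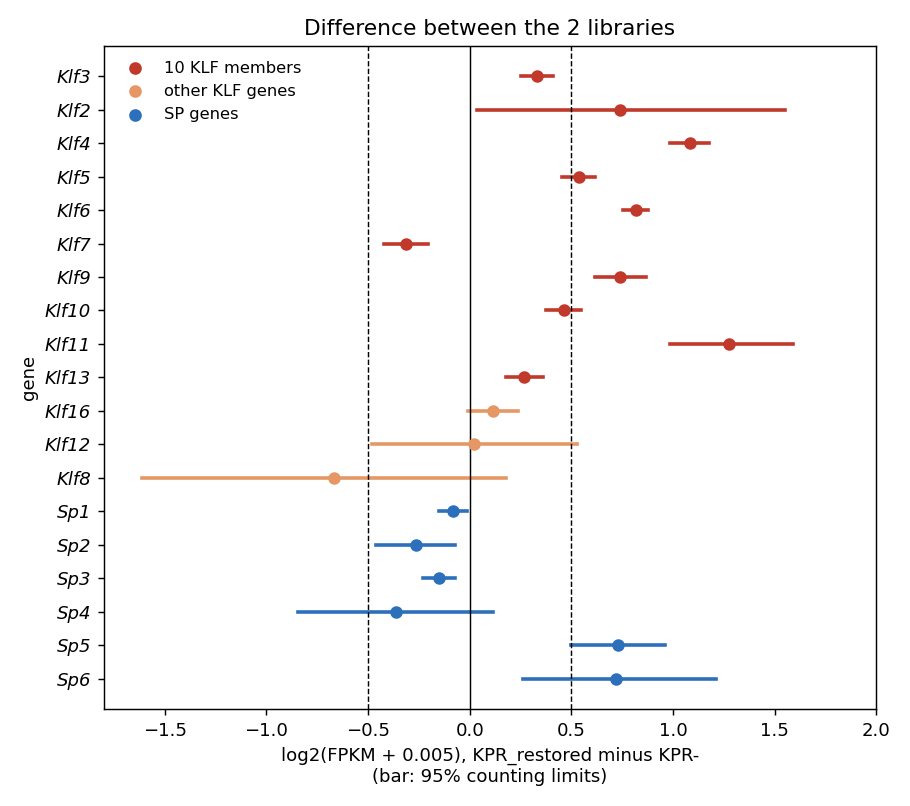
Differences in log2(FPKM + 0.005), KPR_restored minus KPR- (x axis, points), with 95% counting limits (bars) for the 10 members, 3 other KLF genes and 6 SP genes. Dashed lines mark 0.5 on either side. The members lie to the right of 0 except *Klf7* at -0.31. *Sp1*, *Sp2* and *Sp3* lie between -0.26 and -0.08 and *Sp4* at -0.36, whereas *Sp5* and *Sp6* lie at 0.73 and 0.72. Genes with under 10 fragments in one library, and *Sp8* and *Sp9*, are not drawn.

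By level, the order in the KPR- library was *Klf6*, *Klf5*, *Klf10*, *Klf3*, *Klf4*, *Klf13*, *Klf7*, *Klf9*, *Klf11* and *Klf2*. There the neighbours *Klf5* and *Klf10*, *Klf3* and *Klf4*, and *Klf7* and *Klf9* did not differ beyond counting error. In the KPR_restored library the order was *Klf6*, *Klf4*, *Klf5*, *Klf10*, *Klf3*, *Klf13*, *Klf9*, *Klf7*, *Klf11* and *Klf2*, and among neighbours the pair *Klf4* and *Klf5* was not resolved. The FPKM summed over the 10 members came to 173 for KPR- and 265 for KPR_restored, 1.53-fold higher. *Klf6* made up 21.9% of the sum in KPR- and 25.2% in KPR_restored, *Klf4* 12.2% and 16.9%, and *Klf7* 5.21% and 2.73%. The levels spanned a 53.3-fold range in the KPR- library and a 56.1-fold range in the KPR_restored library.

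**Figure D4:**
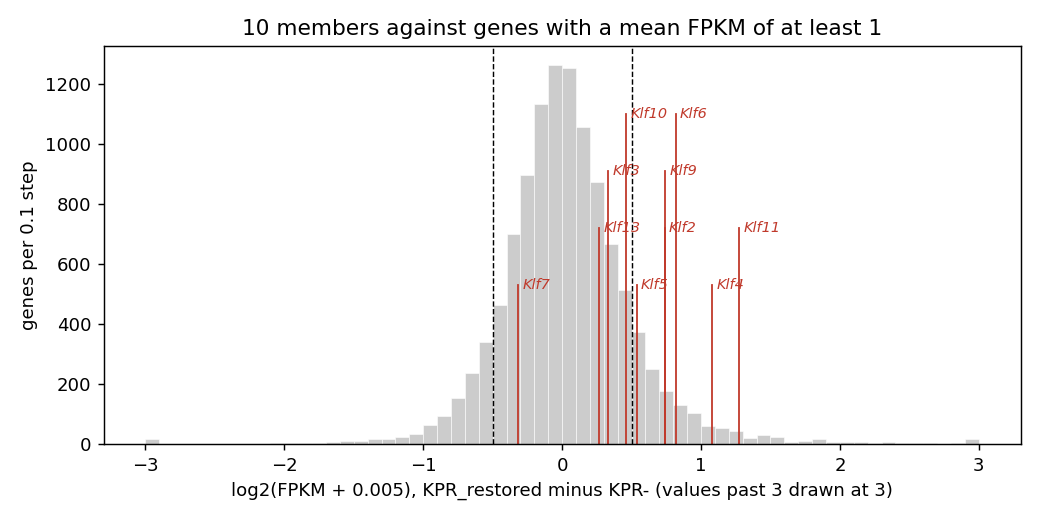
Number of genes (y axis) per 0.1 step of the log2 difference (x axis) for the 11231 expressed genes, with the 10 members as labelled lines and the threshold of 0.5 as dashed lines. 9 members lie right of 0, and *Klf4* and *Klf11* exceed 97.5% and 98.4% of the genes. Values past 3 on either side are drawn at 3.

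Promoter sequence was examined for the 8 members with a window in the RefSeq table (GRCm38.p6), of which *Klf5* and *Klf10* are not part. The 250 bases before the start site were searched on both strands for TGTGGT, which is the RUNX core, for CACCC, for the GC box GGGCGG, for the cAMP response element TGACGTCA and for the ATF4-type element TTGCATCA. CACCC and GC box matches can overlap each other. The RUNX core was found in 0 of 8 windows, as were the cAMP and ATF4-type elements, where 14.0%, 1.55% and 0.791% of all 32851 windows hold them. The GC box was found in 7 of 8 windows, against 32.7% of all windows, and CACCC in 5 of 8, against 52.0%. The windows of the members were 59.2% to 78.4% G and C, where the median of all windows was 52.4%. A match is a run of letters and not a shown binding site, and its absence speaks for this window only.

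The promoters of the 3 members with the largest differences among those with a window, *Klf11*, *Klf4* and *Klf6*, are shown 5′ to 3′ on the gene's strand, up to the first annotated exon. Capitals mark GC boxes on either strand, the only motif of the 5 with a match in these stretches. *Klf11* is shown at chr12:24651121-24651273 (plus strand), *Klf4* at chr4:55532476-55532725 (minus strand) and *Klf6* at chr13:5861239-5861481 (plus strand).
Klf11: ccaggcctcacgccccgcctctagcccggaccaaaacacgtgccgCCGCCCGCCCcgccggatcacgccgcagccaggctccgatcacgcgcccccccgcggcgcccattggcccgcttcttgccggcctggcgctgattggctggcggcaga
Klf4: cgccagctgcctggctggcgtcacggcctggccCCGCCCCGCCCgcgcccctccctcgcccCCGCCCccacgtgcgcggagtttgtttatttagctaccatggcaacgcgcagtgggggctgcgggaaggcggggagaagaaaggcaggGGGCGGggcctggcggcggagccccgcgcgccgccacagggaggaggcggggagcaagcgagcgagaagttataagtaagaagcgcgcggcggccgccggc
Klf6: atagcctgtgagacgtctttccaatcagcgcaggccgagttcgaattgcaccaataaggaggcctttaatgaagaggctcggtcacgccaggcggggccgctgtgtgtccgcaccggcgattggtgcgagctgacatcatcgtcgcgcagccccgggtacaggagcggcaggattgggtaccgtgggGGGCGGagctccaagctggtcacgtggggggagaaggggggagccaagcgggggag
The window of *Klf4* held 4 GC boxes, that of *Klf11* 4 in all with 2 in the stretch shown, and that of *Klf6* 1. *Klf9*, with a difference of 0.74, had no GC box and 1 CACCC match, and *Klf3*, with a difference of 0.33, had 6 GC boxes, counted over its whole window, whose first base already lies in an annotated exon.

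The rest of the family gave few values to compare. Of 8 further KLF genes, 7 are in the tables. *Klf16*, a Sin3-binding relative, was the only expressed one, with 18.8 FPKM in KPR- and 20.3 FPKM in KPR_restored. Its difference of 0.12 had limits of -0.01 to 0.24. With it, 5 of the 10 expressed KLF genes were higher and 0 were lower, against 12.1% and 9.29% of the expressed genes. Their median difference was 0.499. *Klf12* and *Klf8*, the CtBP-binding relatives of *Klf3*, had 0.538 and 0.546 FPKM and 0.301 and 0.188 FPKM in KPR- and KPR_restored, and the limits of both differences include 0. *Klf15* had 0.0219 FPKM in KPR- and 0.213 FPKM in KPR_restored, from about 1 and 10 fragments. Its difference of 3.02 had limits of 0.47 to 8.72. *Klf1*, the red cell factor, rested on about 5 and 2 fragments. *Klf17* was listed at 0 in KPR- and rested on about 1 fragment in KPR_restored, and *Klf14* was listed at 0 in both.

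The SP genes, which encode factors with the same kind of fingers and similar DNA sites, lay on both sides of 0. The most abundant of them, *Sp3* and *Sp1*, lay slightly below it. *Sp1* had 21.4 FPKM in KPR- and 20.2 FPKM in KPR_restored, *Sp3* had 30.8 and 27.7 FPKM, and *Sp2* had 7.67 and 6.38 FPKM. Their differences of -0.08, -0.15 and -0.26 had limits below 0 and did not reach the threshold. *Sp5*, a target of Wnt signalling, had 6.10 FPKM in KPR- and 10.1 FPKM in KPR_restored, a difference of 0.73 with limits of 0.50 to 0.96. *Sp6*, a factor of skin and tooth epithelium, had 0.823 and 1.36 FPKM, a difference of 0.72 with limits of 0.26 to 1.21. Of the 5 expressed SP genes, 2 were higher and 0 were lower, against 12.1% and 9.29% of the expressed genes. The summed FPKM of the 9 SP genes was 68.1 in KPR- and 67.1 in KPR_restored. *Sp4*, *Sp8* and *Sp9* had under 1 FPKM in both libraries with limits that include 0, at differences of -0.36, -0.82 and 0.63, and *Sp7* was listed at 0 in KPR- and rested on about 3 fragments in KPR_restored. The difference between the KLF and SP genes was not tested.

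Among the genes of proteins through which KLFs act, 10 encode corepressors of the CtBP and Sin3 complexes. Of these, 0 were past the threshold either way, where 12.1% of the expressed genes were higher and 9.29% were lower. In lists this short those shares come to few genes. The median difference was -0.01. *Sin3b*, a Sin3 scaffold, had 52.4 FPKM in KPR- and 68.9 FPKM in KPR_restored (0.39), and *Sap30*, a Sin3 complex subunit, 40.6 and 44.6 FPKM (0.14). *Hdac1*, a histone deacetylase, had 57.2 and 47.8 FPKM (-0.26), and *Sin3a* 22.6 and 19.8 FPKM (-0.19). The 4 acetyltransferase genes had a median of -0.14, from *Kat2a* at -0.25 and *Ep300* at -0.16 to *Kat2b* at 0.0067. Of these 4, 0 were past the threshold, beside the same shares of the expressed genes.

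Upstream, *Klf2* and *Klf4* are known targets of the kinase ERK5 and of the MEF2 factors that it activates. None of the 7 genes of this branch was past the threshold, where 13.8% of all genes were higher and 12.9% were lower. The 6 expressed ones had a median of 0.22. *Mef2d* had 18.5 FPKM in KPR- and 25.2 FPKM in KPR_restored (0.44), *Mapk7*, which encodes ERK5, 14.5 and 18.9 FPKM (0.38), and *Map3k2*, a kinase above it, 8.08 and 6.51 FPKM (-0.31). Of 7 genes that control the stability of KLF proteins, 0 were past the threshold, where 12.1% of expressed genes were higher and 9.29% lower. The median of the 7 was 0.14. Of the ubiquitin ligases among them, *Siah1a* (0.29) and *Smurf1* (0.27) had the largest positive differences, and *Wwp1* (-0.26) and *Itch* (-0.22) the largest negative ones.

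Textbook KLF target genes lay on both sides. Of 17 genes, 12 were expressed, of which 3 were higher (12.1% of expressed genes) and 1 was lower (9.29%), with a median of 0.12. *Thbd*, which encodes the anticoagulant thrombomodulin and is a known target of *Klf2* and *Klf4*, had 26.0 FPKM in KPR- and 73.5 FPKM in KPR_restored (1.497). *Cdkn1a*, which encodes the cell cycle inhibitor p21, had 14.2 and 39.6 FPKM (1.49). *Bdkrb2*, a bradykinin receptor gene named here after its value was seen, had 4.66 and 9.10 FPKM (0.97). *Ccnd1*, which encodes cyclin D1, was the lower gene, with 331 and 203 FPKM (-0.71), and *Tgfbr1*, a TGF-β receptor, had 17.9 and 13.3 FPKM (-0.43). Whether any of these genes follow a KLF in these cells was not tested.

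*Klf10* and *Klf11* were named for their induction by TGF-β, and genes of that pathway were examined beside them. Of 10 ligand, receptor and SMAD genes, 0 were higher and 2 were lower, where 12.1% and 9.29% of the expressed genes were, with a median of -0.23. The lower genes were *Tgfbr3*, the receptor betaglycan, with 2.36 FPKM in KPR- and 1.54 FPKM in KPR_restored (-0.61), and *Tgfb2*, a ligand, with 2.82 and 1.86 FPKM (-0.60). *Smad2*, a signal carrier, had 6.36 and 6.96 FPKM (0.13), and *Tgfb3* 4.74 and 5.04 FPKM (0.09). Beside *Klf9*, genes of the glucocorticoid response lay on both sides. *Tsc22d3*, which encodes GILZ, had 8.85 FPKM in KPR- and 28.2 FPKM in KPR_restored (1.67), and the clock gene *Per1* had 4.32 and 5.92 FPKM (0.45). *Fkbp5*, a chaperone gene induced by the same receptor, had 32.7 and 21.3 FPKM (-0.62), and *Nr3c1*, the receptor itself, 9.46 and 9.03 FPKM (-0.07). Of the 6 genes on that list 1 was higher and 2 were lower (13.8% and 12.9% of all genes), the other lower gene being *Zbtb16* with about 1 and 0 fragments.

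Cells of other types can also express KLFs, *Klf2* and *Klf4* in endothelium above all. The summed FPKM of 5 endothelial markers was 1.19 in KPR- and 2.24 in KPR_restored, nearly all of it *Kdr* with 1.10 and 2.05 FPKM. *Tek* was listed at 0 in both libraries, *Cdh5* at 0 in KPR- and 0.141 FPKM in KPR_restored, and *Pecam1* and *Vwf* were under 0.1 FPKM in both. Among immune markers, *Cd3e* was listed at 0 in both libraries and *Ptprc* at 0 in KPR- and 0.00892 FPKM in KPR_restored. Of the macrophage markers, *Cd68* was at 3.08 FPKM in KPR- against 6.78 FPKM in KPR_restored, and *Csf1r* at 2.68 against 1.19 FPKM. Of 7 mesenchymal markers 1 was higher and 4 were lower, against 13.8% and 12.9% of all genes, and of the 2 expressed ones 0 were higher and 1 was lower (*Col1a1*). The higher marker, *Dcn*, rested on about 6 and 26 fragments, and its difference of 2.07 had limits of 0.76 to 3.65. *Col1a2*, *Pdgfrb* and *Acta2* were lower on 9 fragments or fewer, with limits that include 0. *Vim*, which cultured tumor cells also express, had 1777 and 1464 FPKM, and *Col1a1* had 12.2 and 4.21 FPKM. The part of these markers in the KLF values was not tested, and in bulk RNA fewer cells of a type and less RNA per cell cannot be told apart.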

How the data were processed

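RNA of 1 KPR- and 1 KPR_restored culture was sequenced. Per the study's methods, the authors selected poly(A) RNA, prepared directional libraries (NEBNext Ultra II), sequenced paired ends, trimmed reads of low quality, aligned them with TopHat and obtained FPKM from Cufflinks. The submitters' processing notes name TopHat and mm10. Versions and the annotation are not given in the sources used here. The deposited FPKM, which sum to 521340 for KPR- and 523647 for KPR_restored, cover 23183 genes. A normalization with EdgeR is named in the methods, but no counts were used here.

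With 1 library per group, no p-value was computed. Differences were taken as log2(FPKM + 0.005), with a threshold of 0.5 and a filter at a mean FPKM of 1 where stated. Transcript lengths and positions came from GENCODE M21 on GRCm38, the assembly that mm10 names. Of the symbols, 22148 matched directly and 649 through a synonym. The depth (about 21900000 and 22500000 fragments, mean fragment length 215 bases) was estimated from genes of a single transcript length. In KPR- 75.5% and in KPR_restored 78.0% of low values lay within 0.1 of a whole fragment, where 20% of evenly spread values would. The depth was chosen to bring these same values close to whole fragments, so the 20% is not a fair baseline for the fit. The estimate and the counting limits were tested on simulated libraries. These were drawn with counting error only, which the limits assume, and with the longest transcript of each gene. Other kinds of error, the sharing of fragments among transcripts and the choice of transcript were therefore not tested there. Alternatives were pseudocounts of 0.1 and 1, a threshold of 1, 3 other scalings, a shorter transcript and, chosen after seeing the data, removal of the trend with transcript length.

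The members and gene lists were chosen with earlier results of these data known. All members, all other KLF and SP genes and, in every other list, the 2 largest positive and negative differences among expressed genes were named. A gene of the marker lists is not reported here. Zinc finger stretches were found by translating the coding sequence of the longest transcript with Biopython and searching it for a pattern of cysteines and histidines. This took the place of the separate protein sequences first planned, which were not used here. Tables were handled with pandas 2.3.3 and numpy 2.4.6 in Python 3.11.15, limits came from scipy 1.17.1, and plots were drawn with matplotlib 3.10.9.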

Additional observations from a re-analysis of the deposited data

How the results depend on the processing

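All 10 members kept the sign of their difference in the 59 values recomputed under other pseudocounts, scalings and the removal of the length trend. A pseudocount cannot change a sign, and a scaling moves all genes by nearly the same amount, so the kept signs are no check there. The 3 scalings moved no member by more than 0.023. *Klf11* had a difference of 0.89 with a pseudocount of 1. With the trend with transcript length removed, *Klf3* had 0.42, *Klf13* 0.38 and *Klf7* -0.15. The count of higher members was 6 under a pseudocount of 0.1 and under each scaling, 5 with a pseudocount of 1 (without *Klf2*, at 0.36), 5 with the length trend removed (*Klf2* is left out, its mean FPKM being under 1) and 2 at a threshold of 1 (*Klf4* and *Klf11*). It was 0 for lower members throughout. With the shortest coding transcript in place of the longest, fewer fragments stand behind a value, and the lower counting limit became -0.0011 for *Klf10*, -0.11 for *Klf11* and -0.17 for *Klf13*, while the upper limit of *Klf7* became 0.21. Over all genes, 3193 higher and 3002 lower genes became 1141 and 836 with a pseudocount of 1, 1625 and 1527 at a threshold of 1, and 1358 and 1043 among expressed genes (mean FPKM of 1 or more). The median of the glucocorticoid list was 0.11 over all 6 genes and 0.29 over the 5 expressed ones. No library could be left out, with 1 in each group. No paired analysis was possible because each group has 1 library.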
